A study of Mus musculus with 11 samples.

Results

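Messenger RNA of 38 genes for aminoacyl-tRNA synthetases and their scaffold proteins was compared between cells with and without a knockdown of Drp1, a GTPase of the dynamin family that splits mitochondria. The genes were chosen by name: 20 cytosolic synthetases, 16 mitochondrial synthetases and the scaffold proteins Aimp1 and Aimp2. All 38 were found among the 15113 genes of the count table through their Ensembl identifiers, and all 38 passed the low-count filter that left 13025 genes. A random short hairpin RNA was expressed in the control group (n = 6), and one against Drp1 in the Drp1 group (n = 5). Both groups were C2C12 cells, a line of mouse muscle precursors able to fuse into myotubes, labelled as early-stage myotubes at passages 2 to 5. The labels name no clone and give no separate culture for each library, so a p-value here speaks of library spread, which may be technical.

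A synthetase joins an amino acid to the transfer RNA that carries its codon match, so the family sets the supply of charged tRNA for protein synthesis. Mitochondria translate the genes of their own DNA and use a separate set of nuclear-encoded synthetases, whose symbols end in 2; Gars and Kars, listed here with the cytosolic enzymes, also supply the mitochondrial glycine and lysine enzymes. In the cytosol several synthetases are held with Aimp1 and Aimp2 in a multisynthetase complex. Many genes of cytosolic synthetases are known targets of ATF4, the transcription factor of the integrated stress response, and the kinase GCN2 (Eif2ak4) senses uncharged tRNA upstream of it.

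Total counts ran from 12277622 in Drp1 replicate 2 to 23082617 in control replicate 2. Dnm1l, which encodes Drp1, was at 78.6 ± 8.63 CPM (tag counts scaled to a common library total; SD, n = 6) with the random hairpin and 18.7 ± 2.58 CPM (SD, n = 5) with the Drp1 hairpin. The Drp1 libraries went against the label of myotubes: the summed level of 8 myotube markers, among them Myog and Acta1, ran from 10609.5 to 11995 CPM in control and from 142 to 196 CPM in Drp1 libraries. The summed level of 12 markers of other cell types ran from 2.48 to 4.37 CPM in control and from 2.67 to 5.57 CPM in Drp1 libraries; 8 of those 12 are not in the count table and the rest were at most at 4.18 CPM in any library. Because the loss of myotube markers moved with the hairpin in every library, its part in the results below cannot be told apart from that of the knockdown. In these bulk samples fewer cells of a type and less RNA per cell cannot be told apart either. On the second principal component control replicate 1 (30.9) and Drp1 replicate 2 (32.5) lay at one end, and control replicate 4 (-27.3) and Drp1 replicate 5 (-27.7) at the other. Counts with and without each of these pairs of libraries are given below.

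Around the start site, 5 of the 13 cytosolic enzymes with a RefSeq promoter window (GRCm38.p6, 250 bases before to 50 after the start) held the core of the CEBP-ATF response element to which ATF4 binds, TGATGNAA, on either strand. These were Aars, Gars, Iars, Tars and Yars, and none of the 14 mitochondrial enzymes or 2 scaffold genes with a window held it. The core occurred in 3.97% of all 32851 windows. The cAMP response element TGACGTCA, a different run of letters, was in no member's window and in 1.79% of all windows. No window was matched for Cars, Hars, Lars, Nars, Rars, Vars, Wars, Hars2 and Pars2. The 5 windows are shown because they are the members in which the core was found, and because one of them, Aars, did not pass the test described below while the other 4 fell; capitals mark the core.
Aars (chr8:111033592-111033891, plus strand): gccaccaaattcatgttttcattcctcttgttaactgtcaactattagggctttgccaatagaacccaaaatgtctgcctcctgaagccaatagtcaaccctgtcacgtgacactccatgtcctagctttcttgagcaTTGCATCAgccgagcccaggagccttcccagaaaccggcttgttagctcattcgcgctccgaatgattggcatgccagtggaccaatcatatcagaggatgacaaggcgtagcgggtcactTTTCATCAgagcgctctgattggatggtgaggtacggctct
Gars (chr6:55037751-55038050, plus strand): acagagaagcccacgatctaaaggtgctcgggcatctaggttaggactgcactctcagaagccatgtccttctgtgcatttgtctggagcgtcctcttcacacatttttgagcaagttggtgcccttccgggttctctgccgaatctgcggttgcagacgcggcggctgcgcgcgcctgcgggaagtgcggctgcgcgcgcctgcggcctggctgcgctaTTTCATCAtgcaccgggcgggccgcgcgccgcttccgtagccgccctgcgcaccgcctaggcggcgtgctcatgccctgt
Iars (chr13:49681880-49682179, plus strand): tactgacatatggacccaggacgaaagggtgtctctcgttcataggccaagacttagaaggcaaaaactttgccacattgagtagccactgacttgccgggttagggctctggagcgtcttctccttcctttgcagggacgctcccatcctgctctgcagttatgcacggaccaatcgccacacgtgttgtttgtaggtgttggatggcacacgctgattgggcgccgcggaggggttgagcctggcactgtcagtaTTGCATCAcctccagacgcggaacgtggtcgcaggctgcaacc
Tars (chr15:11399609-11399908, minus strand): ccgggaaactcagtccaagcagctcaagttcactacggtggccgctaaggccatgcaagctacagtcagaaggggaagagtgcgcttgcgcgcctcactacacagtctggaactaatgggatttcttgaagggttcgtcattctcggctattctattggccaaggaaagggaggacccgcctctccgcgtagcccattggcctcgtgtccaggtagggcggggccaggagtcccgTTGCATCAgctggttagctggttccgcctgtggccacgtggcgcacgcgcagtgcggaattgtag
Yars (chr4:129189653-129189952, plus strand): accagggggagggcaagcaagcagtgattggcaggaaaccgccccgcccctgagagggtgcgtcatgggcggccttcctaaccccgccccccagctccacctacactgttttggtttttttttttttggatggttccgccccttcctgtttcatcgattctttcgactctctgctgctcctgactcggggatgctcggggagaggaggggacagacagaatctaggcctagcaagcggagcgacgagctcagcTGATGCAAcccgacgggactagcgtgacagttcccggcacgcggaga
In Aars the core stood at -112 and again at 10 from the start site, in Gars at -30, in Iars at 8, in Tars at -15 and in Yars at 4, counted to its first base. A match of letters is a description of the window and does not show that a factor binds there.

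Most synthetase genes were lower in the Drp1 libraries. Of the 38 members 27 fell, 4 rose and 7 missed an adjusted p of 0.05 (edgeR quasi-likelihood test, Benjamini-Hochberg over 13025 genes). Among all genes tested 33.3% fell and 33.9% rose, so 71.1% of members fell where the background was 33.3%, and 10.5% rose where it was 33.9%. The median log2 fold change of the members was -0.66, and that of all genes tested was 0.03. The members' levels did not overlap between groups for 25 of the 38 with Drp1 lower and for 1 of the 38 with Drp1 higher. Among the 13025 genes tested this held for 3313 (25.4%) and 3055 (23.5%). Without control replicate 1 and Drp1 replicate 2, 27 members fell and 3 rose, the rise of Sars2 being the call that was lost. Without control replicate 4 and Drp1 replicate 5, 27 fell and 4 rose.

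**Figure D1:**
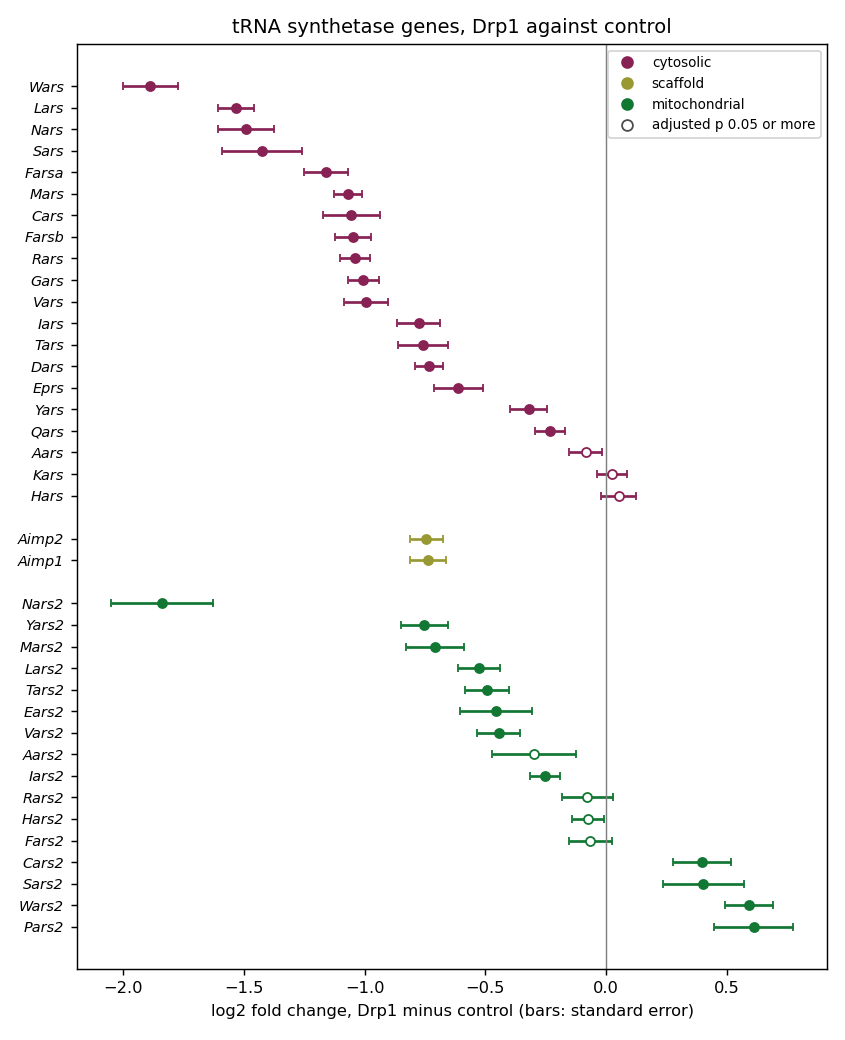
Log2 fold change (Drp1 minus control, x axis) of the 38 members with its standard error as a bar, by class; open symbols missed an adjusted p of 0.05. Cytosolic enzymes run from -1.89 for Wars to 0.05 for Hars, and mitochondrial enzymes from -1.84 for Nars2 to 0.61 for Pars2.

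Among the cytosolic enzymes 17 of 20 (85%) fell, 10 of them at least 2-fold, and none rose. Of all genes tested 33.3% fell, 13.7% by at least 2-fold, and 33.9% rose. Their median log2 fold change was -0.999. Wars, the tryptophan enzyme, whose human counterpart is induced by interferon, fell the furthest. Its level in control libraries had a lowest value of 62.1, a median of 82.1 and a highest value of 102.9 CPM. In Drp1 replicates 1 to 5 it was 20.6, 23.3, 20.8, 20.7 and 24.2 CPM. The groups were far apart, with the Drp1 libraries close to each other. The mean of 80.9 ± 13.7 CPM in control (SD, n = 6) dropped to 21.9 ± 1.70 CPM with the Drp1 hairpin (SD, n = 5), a log2 fold change of -1.89 (SE 0.11, adjusted p = 1.8e-09, edgeR). Wars (ENSMUSG00000021266) is on the minus strand of chromosome 12, GRCm38 positions 108860030 to 108894174.

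The leucine, asparagine and serine enzymes followed. Lars, part of the multisynthetase complex and a leucine sensor for mTORC1, had a lowest, median and highest control level of 456.8, 517.6 and 551.7 CPM. Its Drp1 levels in replicates 1 to 5 were 171.2, 172.5, 155.6, 181.0 and 200.6 CPM. Every Drp1 library lay below every control library, and the log2 fold change came to -1.53 (SE 0.07, adjusted p = 1.4e-10, edgeR). Nars, the asparagine enzyme, had control levels of 1071, 1302 and 1371 CPM (lowest, median and highest). In Drp1 replicates 1 to 5 Nars was at 449.6, 391.2, 349.2, 489.8 and 566.4 CPM, again without overlap (log2 fold change -1.49, SE 0.11, adjusted p = 3.1e-08, edgeR). Sars, the serine enzyme, was more variable in control, with 660.5, 982.8 and 1079 CPM. In Drp1 replicates 1 to 5 it stood at 356.1, 267.3, 252.5, 388.6 and 454.0 CPM. The groups did not overlap, and the log2 fold change came to -1.42 (SE 0.16, adjusted p = 4.3e-06, edgeR). Sars (ENSMUSG00000068739) is on the minus strand of chromosome 3, GRCm38 positions 108424865 to 108445209.

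Gars, the glycine enzyme of both compartments, was at 594.8, 643.6 and 689.5 CPM (lowest, median and highest) in control. Its Drp1 levels were 314.2, 302.2, 298.3, 336.1 and 359.7 CPM in replicates 1 to 5, 49.8% of control on average, with a log2 fold change of -1.01 (SE 0.06, adjusted p = 4.0e-09, edgeR). The methionine enzyme Mars, the cysteine enzyme Cars, the arginine enzyme Rars, the phenylalanine subunit Farsb and the valine enzyme Vars had log2 fold changes of -1.07, -1.05, -1.04, -1.05 and -0.99, each without overlap between groups. Smaller decreases, also without overlap, were measured for the isoleucine enzyme Iars at -0.78, the threonine enzyme Tars at -0.76, the aspartate enzyme Dars at -0.73, the glutamate and proline enzyme Eprs at -0.61 and the glutamine enzyme Qars at -0.23. Yars, the tyrosine enzyme, fell by 0.32 on the log2 scale with overlapping groups (adjusted p = 0.0016, edgeR). Qars was the weakest of these calls and was lost when library totals alone (adjusted p = 0.089) or upper quartile factors (adjusted p = 0.052) scaled the counts.

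The alanine, lysine and histidine enzymes did not pass the test. Aars was at 203.2 to 250.2 CPM in control and at 199.0 to 236.6 CPM in Drp1 libraries (log2 fold change -0.08, adjusted p = 0.28, edgeR). Kars, the lysine enzyme of both compartments and a subunit of the complex, was at 133.7, 143.8 and 158.6 CPM (lowest, median and highest) in control. Kars in Drp1 replicates 1 to 5 was at 141.7, 153.4, 151.0, 149.6 and 140.4 CPM, inside the control range (log2 fold change 0.02, SE 0.06, adjusted p = 0.74, edgeR). Hars, the histidine enzyme, averaged 71.1 ± 3.65 CPM across controls (SD, n = 6) and 73.7 ± 7.87 CPM across Drp1 libraries (SD, n = 5) (adjusted p = 0.55, edgeR). The sign of the small difference turned with library totals alone for Aars, without control replicate 3 for Kars and without Drp1 replicate 2 for Hars.

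**Figure D2:**
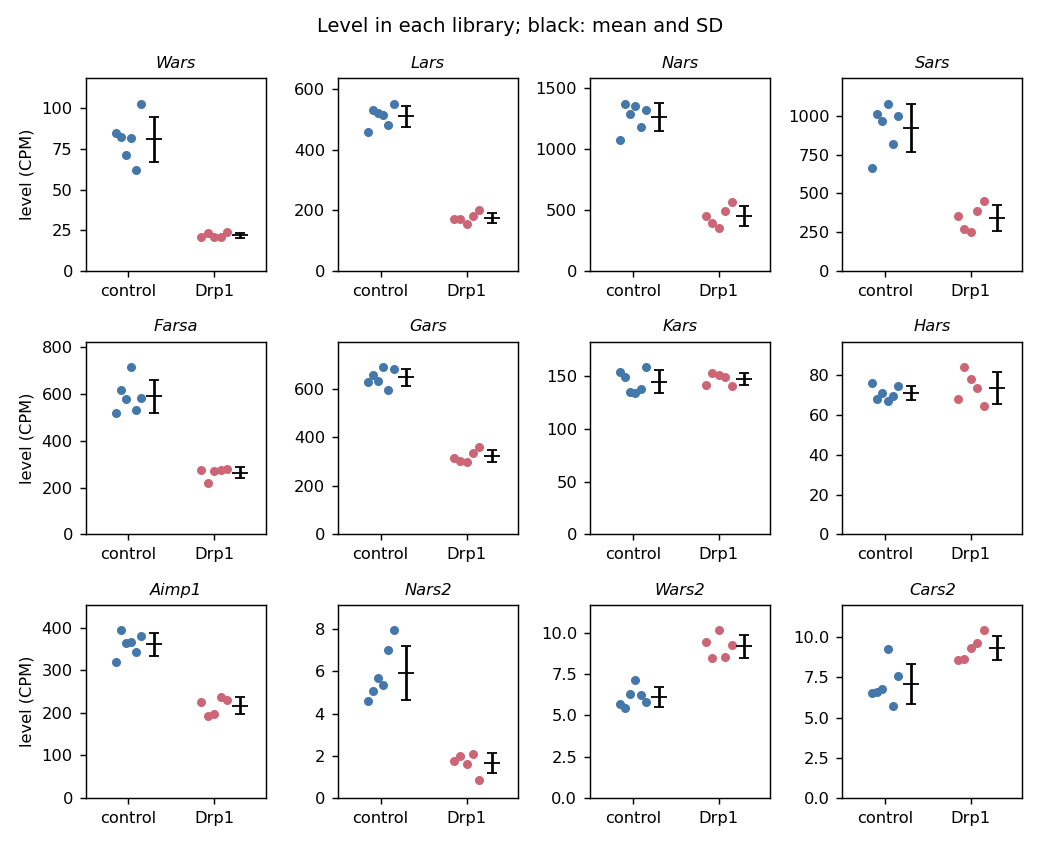
Level in CPM (y axes, from 0) of 12 members in each of the 6 control (blue) and 5 Drp1 (red) libraries, with the mean and SD in black. Wars, Lars, Nars, Sars, Farsa, Gars, Aimp1 and Nars2 do not overlap between groups with Drp1 lower, Wars2 does not overlap with Drp1 higher, and Kars, Hars and Cars2 overlap.

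The scaffold genes fell by nearly equal amounts. Aimp1, which anchors the arginine and glutamine enzymes in the complex and is also cleaved to a secreted cytokine, was at 318.7, 365.8 and 393.6 CPM (lowest, median and highest) in control. Aimp1 in Drp1 replicates 1 to 5 was at 226.4, 192.6, 197.4, 238.1 and 230.0 CPM (log2 fold change -0.74, SE 0.07, adjusted p = 5.8e-07, edgeR). Aimp2, which holds the core of the complex together, was at 99.0, 112.9 and 116.1 CPM in control. In Drp1 replicates 1 to 5 it was at 62.6, 60.2, 64.2, 67.1 and 73.5 CPM, and its log2 fold change was also -0.74 (SE 0.07, adjusted p = 2.0e-07, edgeR). Neither gene overlapped between groups. The complex holds 10 members: Eprs, Iars, Lars, Mars, Qars, Rars, Kars, Dars and the 2 scaffolds. Of these 9 (90%) fell and Kars did not pass, with a median of -0.74. The 12 cytosolic enzymes outside the complex had a median of -1.03, with 10 (83.3%) lower. Among all genes tested 33.3% fell and 33.9% rose. Eef1e1, the small scaffold protein of the complex that is not in the set, was at 10.2 ± 1.25 CPM across controls (SD, n = 6) and 10.8 ± 3.17 CPM across Drp1 libraries (SD, n = 5) (adjusted p = 0.65, edgeR).

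Mitochondrial enzymes were called in both directions. Of 16, 8 fell, 4 rose and 4 did not pass: 50.0% fell where 33.3% of all genes did, and 25.0% rose where 33.9% of all genes did. Their median log2 fold change was -0.28, and it was -0.18 when library totals alone scaled the counts; 1 of the 8 decreases was at least 2-fold. Nars2, the mitochondrial asparagine enzyme, was that gene. It had control levels of 4.58, 5.52 and 7.94 CPM (lowest, median and highest). In Drp1 replicates 1 to 5 it was at 1.74, 2.01, 1.597, 2.07 and 0.873 CPM. The highest Drp1 library lay below the lowest control library, and the log2 fold change came to -1.84 (SE 0.21, adjusted p = 2.5e-06, edgeR). Its counts were low, from 15 to 44 in the Drp1 libraries and from 72 to 154 in control. Nars2 (ENSMUSG00000018995) lies on chromosome 7 from 96951505 to 97064758 on the plus strand of GRCm38.

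Smaller decreases without overlap were found for the tyrosine enzyme Yars2 (log2 fold change -0.75), the methionine enzyme Mars2 (-0.71), the leucine enzyme Lars2 (-0.53), the threonine enzyme Tars2 (-0.49), the valine enzyme Vars2 (-0.45) and the isoleucine enzyme Iars2 (-0.25). The glutamate enzyme Ears2 fell by 0.46 on the log2 scale with overlapping groups (adjusted p = 0.014, edgeR), a call lost with library totals alone (adjusted p = 0.055). The alanine enzyme Aars2 was at 3.05 ± 0.683 CPM (SD, n = 6) and 2.47 ± 0.345 CPM (SD, n = 5) and did not pass (adjusted p = 0.14, edgeR). The histidine enzyme Hars2 was at 22.8, 24.3 and 25.5 CPM (lowest, median and highest) in control and at 23.7, 22.2, 24.2, 22.6 and 21.9 CPM in Drp1 replicates 1 to 5. These ranges overlapped (log2 fold change -0.08, adjusted p = 0.31, edgeR). Hars2 shares a divergent promoter region with Hars: the annotated 5′ ends of the genes overlap by 198 bases, and neither gene passed the test. The arginine enzyme Rars2 and the phenylalanine enzyme Fars2 had log2 fold changes of -0.08 and -0.07 (adjusted p = 0.53 and 0.54, edgeR), and with library totals alone or upper quartile factors the signs of Hars2, Rars2 and Fars2 turned.

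The 4 members that rose were all mitochondrial enzymes at low levels. Pars2, the proline enzyme, was at 2.36, 2.59 and 3.92 CPM (lowest, median and highest) in control and at 3.71, 3.48, 5.25, 4.24 and 4.89 CPM in Drp1 replicates 1 to 5. The groups overlapped only through control replicate 2, and the log2 fold change came to 0.61 (SE 0.16, adjusted p = 0.0043, edgeR). Wars2, the tryptophan enzyme, was at 5.46, 6.04 and 7.13 CPM in control and at 9.45, 8.51, 10.1, 8.52 and 9.25 CPM in Drp1 replicates 1 to 5. It was the member without overlap in the upward direction (log2 fold change 0.59, SE 0.10, adjusted p = 1.0e-04, edgeR). Cars2, the cysteine enzyme, was at 5.74, 6.66 and 9.28 CPM in control and at 8.58, 8.66, 9.32, 9.61 and 10.4 CPM in Drp1 libraries (log2 fold change 0.40, SE 0.12, adjusted p = 0.0098, edgeR). Only its highest control library, replicate 4, reached into the Drp1 range. Sars2, the serine enzyme, was at 2.42, 3.01 and 4.38 CPM in control and at 3.94, 4.25, 4.38, 4.66 and 3.49 CPM in Drp1 libraries. Its call was marginal (log2 fold change 0.40, SE 0.17, adjusted p = 0.045, edgeR) and was lost in 12 of 22 alternative settings, among them the omission of control replicates 1, 3, 4 or 6 or of Drp1 replicates 1, 2, 3 or 4, with adjusted p from 0.011 to 0.13 over all of them.

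Summed over each class, the difference between compartments was seen in every library. The 20 cytosolic enzymes together took 7060 ± 505.8 CPM across controls (SD, n = 6) and 3545 ± 296.9 CPM across Drp1 libraries (SD, n = 5). The 16 mitochondrial enzymes took 246.6 ± 7.96 CPM (SD, n = 6) and 206.4 ± 8.45 CPM (SD, n = 5). The ratio of these sums ran from 25.7 to 31.7 in control libraries and from 14.8 to 19.9 in Drp1 libraries, with no overlap. Drp1 replicate 3 had the lowest ratio and Drp1 replicate 5 the highest of its group. No test is given for these sums, since the members were chosen with results known.

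**Figure D3:**
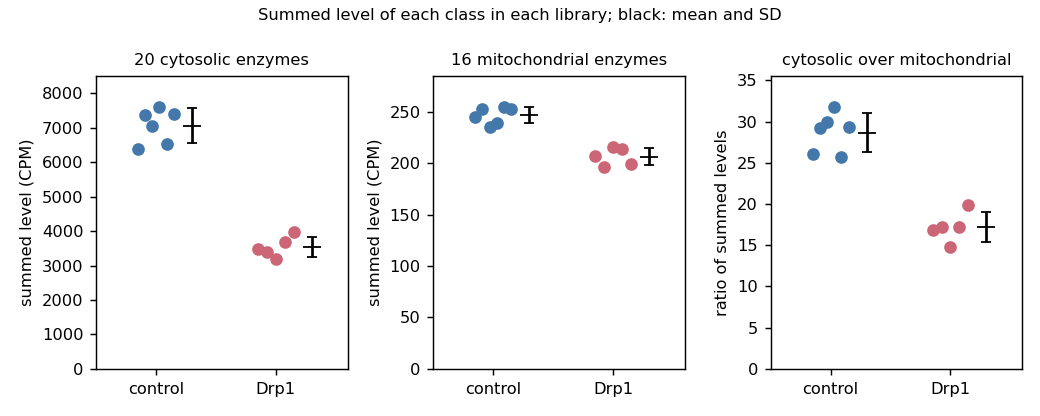
Summed level in CPM of the 20 cytosolic and the 16 mitochondrial enzymes and the ratio of these sums (y axes, from 0) in each control (blue) and Drp1 (red) library, with the mean and SD in black. The ratio lies at 25.7 or above in every control library and at 19.9 or below in every Drp1 library.

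For 16 amino acids the cytosolic gene could be set against its mitochondrial counterpart as a log2 ratio within each library. The ratio differed between groups for 11 of the 16 (two-sided exact permutation test, which cannot give a p below 0.00216, Benjamini-Hochberg over the 16 amino acids at 0.05): it was lower in Drp1 libraries for 10 and higher for 1. Eprs, which charges both glutamate and proline, enters 2 of the ratios. No such count was made for pairs of other genes, so 11 of 16 has no background. Of all genes tested, 67.1% were called in either direction (edgeR). The count is therefore not shown to be particular to synthetase pairs. For tryptophan the level of Wars was 9.89 to 17.6 times that of Wars2 in control and 2.04 to 2.73 times in Drp1 libraries, a change of -2.46 in the log2 ratio (exact permutation p = 0.00216, adjusted p = 0.0038). For serine the ratio of Sars to Sars2 ran from 185.3 to 398.7 in control and from 57.3 to 129.0 in Drp1 libraries, a change of -1.86. For cysteine the ratio of Cars to Cars2 ran from 15.7 to 21.9 and from 5.29 to 7.61, a change of -1.48. In each of these 3 the cytosolic gene fell and the mitochondrial gene rose, although the rise of Sars2 was the marginal call described above. Cars was at 104.8, 128.9 and 146.4 CPM (lowest, median and highest) in control and at 62.1, 52.0, 49.4, 66.4 and 79.4 CPM in Drp1 replicates 1 to 5.

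Changes in the log2 ratio for the other amino acids with a lower ratio were -1.22 for proline, -1.08 for phenylalanine, -1.01 for leucine, -0.96 for arginine, -0.56 for valine, -0.53 for isoleucine, where the groups overlapped, and -0.36 for methionine. The phenylalanine ratio used the subunit gene Farsa and not Farsb, and Farsa lies in a lowered stretch of chromosome 8 described below. Tyrosine went the other way: Yars2 fell further than Yars, and the log2 ratio of Yars to Yars2 rose by 0.43 without overlap (exact permutation p = 0.00216, adjusted p = 0.0038). For alanine, glutamate, histidine, asparagine and threonine the ratio did not pass, with changes of 0.20, -0.16, 0.12, 0.35 and -0.27 and adjusted p from 0.16 to 0.52 (exact permutation test). These values do not show that the enzymes of those amino acids changed alike; the SDs of the asparagine log2 ratio, for example, were 0.30 in control and 0.69 in Drp1 libraries. The threonine ratio rested on Drp1 replicate 2, and passed without that library (change of -0.43, adjusted p = 0.0069, exact permutation test).

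**Figure D4:**
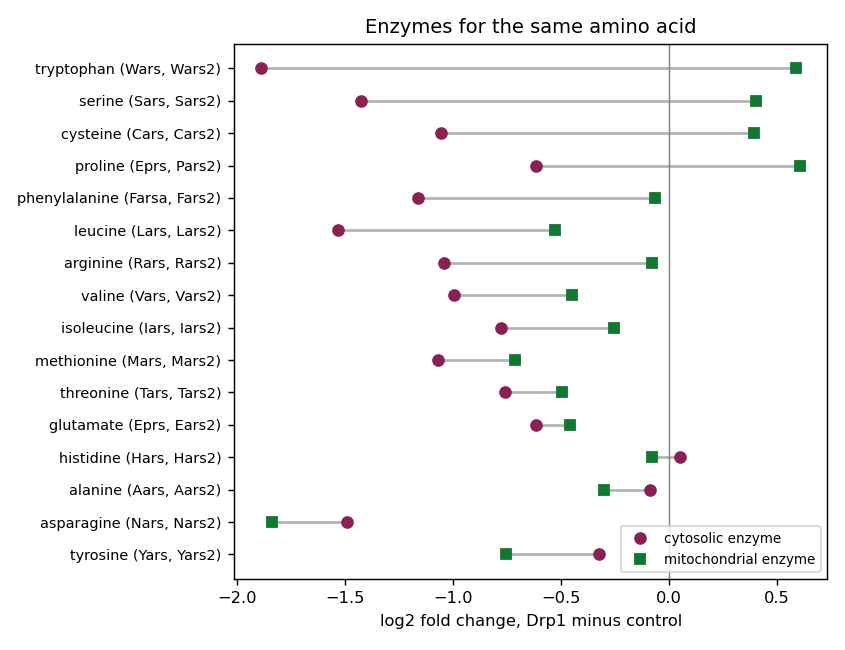
Log2 fold change (Drp1 minus control, x axis) of the cytosolic (circle) and mitochondrial (square) enzyme of 16 amino acids, ordered by the change in their ratio. The gap is widest for tryptophan, with Wars at -1.89 and Wars2 at 0.59, and the order is turned for tyrosine, with Yars at -0.32 and Yars2 at -0.75.

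Eprs, which joins a class I and a class II enzyme, was counted in class I. By catalytic fold, all 10 cytosolic enzymes with a class I active site fell, with a median of -1.02, and 7 of the 10 class II genes fell, with a median of -0.88. The 3 cytosolic genes that did not pass, Aars, Kars and Hars, are all of class II. Among the mitochondrial enzymes 6 of 9 class I genes fell and 2 rose, and 2 of 7 class II genes fell and 2 rose. The class II shares, 28.6% in each direction, were near those of all genes, 33.3% and 33.9%.

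Members also differed in how they varied within a group. Cars, Eprs, Lars, Nars, Sars and Vars had their lowest control level in replicate 1, their lowest Drp1 level in replicate 3 and their highest Drp1 level in replicate 5. Atf4 had the same lowest control library and the same lowest and highest Drp1 libraries, from 716.9 CPM in replicate 3 to 1100.0 CPM in replicate 5. So did the myotube marker Des, from 70.5 CPM in Drp1 replicate 3 to 116.6 CPM in Drp1 replicate 5. Aars, Hars, Iars, Kars and Tars instead had their highest Drp1 level in replicate 2, the library with the fewest counts, at 290.2 CPM for Tars and 69.8 CPM for Iars. The genes were grouped by these ranks themselves, and a link to Atf4 was not tested. The share of all genes with the ranks of Atf4 was not counted, so the pattern is not shown to be particular to it. Aars, Iars and Tars hold the ATF4 core. Gars and Yars, which also hold it, had the Drp1 pattern of Atf4 but their lowest control level in replicate 5. Eprs and Sars have a window without the core.

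Farsa, Aars and Kars lie on parts of chromosome 8 where many neighbouring genes moved in the same direction as each other. A stretch from 76 to 104 Mb was picked as the longest run of 4 Mb bins with a median log2 fold change of -0.5 or less. It held 152 tested genes, of which 120 fell, with a median of -1.05. These values follow in part from that choice. From the end of the stretch to the end of the chromosome 123 of 219 genes rose and 38 fell, with a median of 0.38. Of all genes tested 33.3% fell and 33.9% rose. Farsa, the catalytic subunit of the phenylalanine enzyme, lies in the lowered stretch, on chromosome 8 from 84856989 to 84869257 on the plus strand of GRCm38. It was at 518.6, 579.0 and 714.3 CPM (lowest, median and highest) in control and at 273.2, 220.3, 270.1, 275.9 and 278.5 CPM in Drp1 replicates 1 to 5. No library overlapped, and its log2 fold change of -1.16 (SE 0.09, adjusted p = 3.0e-08, edgeR) stood beside a median of -1.12 for the 67 other tested genes within 2 Mb. Its partner Farsb, on chromosome 1, fell by 1.05 on the log2 scale, where the median of 10 neighbours was -0.29.

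Aars and Kars lie in the raised part of chromosome 8, at 111033144 to 111057664 on the plus strand and 111993443 to 112011323 on the minus strand of GRCm38. The median log2 fold change of the other tested genes within 2 Mb was 0.41 for Aars, over 35 genes, and 0.40 for Kars, over 28 genes. Aars and Kars, which did not pass the test, were thus 0.50 and 0.37 below their neighbours' medians on the log2 scale. These genes start 0.96 Mb apart. Their windows therefore share many genes, and each gene counts among the other's neighbours, so the medians are not separate observations. The part of chromosomal position in the values of Farsa, Aars and Kars was not tested. Leaving out Farsa, 26 members fell and 4 rose.

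**Figure D5:**
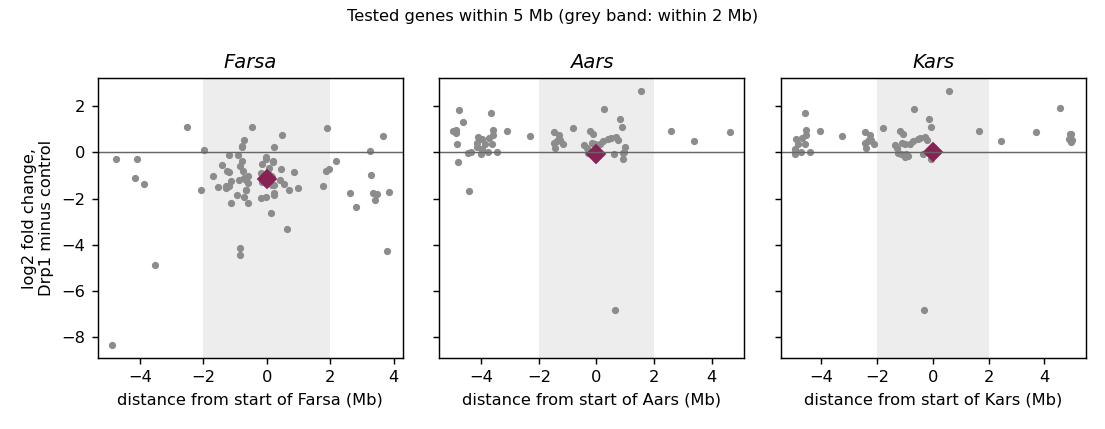
Log2 fold change (Drp1 minus control, y axis) of tested genes within 5 Mb of Farsa, Aars and Kars (grey points) by their distance in Mb (x axis), with the member as a diamond and the 2 Mb window as a band. Farsa, at -1.16, lies amid neighbours within 2 Mb with a median of -1.12. Aars and Kars lie near 0, among neighbours within 2 Mb with medians of 0.41 and 0.40. The windows of Aars and Kars share many genes.

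Other positions matter for what the tags can tell apart. Yars2 (ENSMUSG00000022792) lies on chromosome 16 from 16302965 to 16309640 on the plus strand, tail to tail with Dnm1l, the targeted gene on the minus strand, with 2589 bases between their annotated ends and no other gene of the table there. Yars2 went from 20.1 ± 1.98 CPM in control (SD, n = 6) down to 11.9 ± 1.27 CPM with the Drp1 hairpin (SD, n = 5), a log2 fold change of -0.75 (SE 0.10, adjusted p = 7.1e-06, edgeR), beside a median of 0.06 for 47 neighbours within 2 Mb. Mars and the stress gene Ddit3 also run tail to tail and overlap by 68 bases at their annotated 3′ ends on chromosome 10, and both fell, Mars by 1.07 on the log2 scale and Ddit3 from 292.0 ± 47.1 CPM in control (SD, n = 6) to 125.0 CPM (SD 21.03, n = 5). Another gene of the table covers the annotated 3′ end of 6 members in all, on the opposite strand in each case: Mars, Yars, Cars2, Fars2, Iars2 and Aimp2. Without a stated strand setting their tags cannot be told apart from those of that gene.

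Lists of genes around the charging of tRNA are read against all genes tested, of which 33.3% fell and 33.9% rose. Of 17 genes listed with the eIF2alpha kinase arm, Atf4 and Ddit3 included, 9 (52.9%) fell and 5 (29.4%) rose (median -0.35). The share that rose was near that of all genes. The 5 were the kinases Eif2ak1 (log2 fold change 0.15), Eif2ak2 (2.33), Eif2ak3 (0.63) and Eif2ak4 (0.99), and Impact (0.78). The 9 were Eif2s1, Eif2s2, Ppp1r15a, Atf4, Atf5, Cebpb, Cebpg, Ddit3 and Trib3. The pooled count therefore does not describe the kinases. Atf4 itself was at 2151, 2515 and 2846 CPM (lowest, median and highest) in control and at 931.5, 829.4, 716.9, 903.5 and 1100.0 CPM in Drp1 replicates 1 to 5 (log2 fold change -1.48, SE 0.11, adjusted p = 1.3e-08, edgeR). Cebpb, a partner of ATF4, fell from 48.1 ± 3.02 CPM in control (SD, n = 6) to 14.4 ± 1.42 CPM (SD, n = 5). Eif2ak2, the kinase PKR that senses double-stranded RNA, rose from 10.3 ± 1.32 CPM in control (SD, n = 6) to 52.1 ± 6.70 CPM (SD, n = 5). Eif2ak4, the sensor of uncharged tRNA, chosen after its values were seen, rose from 11.3 ± 0.846 CPM in control (SD, n = 6) to 22.3 ± 2.19 CPM (SD, n = 5), a log2 fold change of 0.99 (adjusted p = 1.4e-07, edgeR).

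Elongation in the cytosol brings charged tRNA to the ribosome and moves it along. Among 8 tested genes listed with it, 4 (50.0%) fell and 1 (12.5%) rose (median -0.12). The list is wider than elongation factors: it holds the scaffold gene Eef1e1, which did not pass, and the kinase gene Eef2k, which fell (log2 fold change -0.32). The translocase Eef2 had a log2 fold change of -0.60 (adjusted p = 1.7e-06, edgeR) and Eef1g, a subunit of the exchange factor, one of 0.37 (adjusted p = 2.0e-05, edgeR). Of 9 tested factors of mitochondrial translation 5 (55.6%) fell and none rose (median -0.20). Gfm2, which recycles mitochondrial ribosomes, had a log2 fold change of -1.38 (adjusted p = 2.0e-07, edgeR), and Tufm, the mitochondrial elongation factor that delivers charged tRNA, one of -0.41 (adjusted p = 0.0044, edgeR). Of 10 tested genes of tRNA amidation and editing 1 (10%) fell and 2 (20%) rose (median -0.06). The 2 were Qrsl1, a subunit of the amidotransferase that makes mitochondrial glutaminyl-tRNA, at 0.62 (adjusted p = 0.00043, edgeR), and Prorsd1 at 0.35 (adjusted p = 0.0015, edgeR). Of 17 genes of tRNA processing and export 10 (58.8%) fell and 1 (5.88%) rose (median -0.37), with Ddx1 of the tRNA ligase complex at -0.62 (adjusted p = 2.9e-07, edgeR) and the 3′ processing nuclease Elac2 at -0.57 (adjusted p = 1.1e-05, edgeR).

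Tarsl2, a threonyl-tRNA synthetase paralog outside the set that was named after its values were seen, was at 6.76 ± 1.38 CPM across controls (SD, n = 6) and 5.85 ± 0.520 CPM across Drp1 libraries (SD, n = 5) (adjusted p = 0.22, edgeR).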

How the data were processed

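Libraries were QuantSeq 3′ libraries, which tag transcripts next to the poly(A) end. The deposited table used holds raw counts per gene by the authors, not normalized; a second table, of normalized values, was not used. Per the series text, reads were aligned in BlueBee. The submitters' processing notes list GRCm38 and mm10 as builds and DESeq2 1.22.2 as a tool. The aligner, counter, strand setting and annotation release were not given in the sources used here. Symbols were found for 15080 of 15113 identifiers, and positions came from GENCODE M21.

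Counts were filtered with filterByExpr, scaled by TMM and tested in edgeR 4.0.16 (R 4.3.3; robust quasi-likelihood, group only, Benjamini-Hochberg over 13025 genes, threshold 0.05). SEs derive from fold change and F statistic, and amino acid ratios add 0.5 counts. Replicates were checked for duplicates, and none was found (chi-square over degrees of freedom from 5.30 to 61.6, so library spread exceeded counting error). The fit was tested on simulated data. Each library held 12277622 counts or more.

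Members and lists were chosen with earlier results of these data known, so lists get counts and medians but no test. All members are named, with each Drp1 library's value and the lowest, median and highest control value for the 6 most negative and 3 most positive fold changes, Aimp1, Aimp2, Gars, Kars, Wars, Hars2 and the 3 amino acids with the largest difference. Of each list the 2 genes with the smallest adjusted p are named, and always Atf4 and Eef1e1. Alternatives were other scalings and filters, DESeq2 1.42.0, limma-voom (limma 3.58.1), a threshold of 0.01, a replicate block, other ratio priors and neighbour windows, and leaving out each library. Omitting control replicate 1 with Drp1 replicate 2, and control replicate 4 with Drp1 replicate 5, was added after seeing the data.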

Additional observations from a re-analysis of the deposited data

Results flagged for a closer look

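Of 84 groups of library values checked, 4 held a library far from the others, where chance flags about 1 in 20. Farsa was at 220.3 CPM in Drp1 replicate 2, against 270.1 to 278.5 CPM in the other Drp1 libraries. Tars was at 290.2 CPM in Drp1 replicate 2, against 195.6 to 217.5 CPM in the others. Iars2 was at 80.6 CPM in control replicate 5, against 68.1 to 72.2 CPM in the other control libraries. Pars2 was at 3.92 CPM in control replicate 2, against 2.36 to 2.93 CPM in the others. Over all alternatives, the omission of these libraries included, the log2 fold change ran from -1.20 to -1.06 for Farsa, from -0.88 to -0.66 for Tars, from -0.28 to -0.15 for Iars2 and from 0.53 to 0.74 for Pars2.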

How the results depend on the processing

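Counts of members lower and higher, in all and by class, stayed within 1.5 times the reported count in the alternatives run (25 to 27 members lower, 3 to 4 higher), and the cytosolic median ran from -1.05 to -0.90. The mitochondrial median ran from -0.33 to -0.18, and was -0.18 with library totals alone and -0.19 with upper quartile factors against the reported -0.28. Library totals alone and upper quartile factors raised the median of all genes by 0.10 and 0.08 on the log2 scale. Under them the uncalled differences of Fars2 (0.035 and 0.020), Hars2 (0.025 and 0.0095) and Rars2 (0.023 and 0.0062) turned positive, as did Aars (0.015) with library totals. Leaving out single libraries gave -0.0094 to 0.096 for Hars and -0.0063 to 0.055 for Kars, neither called. Of the genes listed with cytosolic elongation 1 fell under library totals, 1 under upper quartile factors and 2 at a threshold of 0.01. Of the factors of mitochondrial translation 3 fell under library totals and 3 at 0.01, while 1 rose under library totals and 1 under upper quartile factors. In amidation and editing 2 genes fell with median-ratio factors and 2 with DESeq2, and 0 with library totals, upper quartile factors, the threshold of 0.01 or without control replicate 4 and Drp1 replicate 5. In processing and export 0 rose at 0.01 and 0 without control replicate 1 and Drp1 replicate 2. Leaving out single libraries gave 1 to 2 lower genes in amidation and editing, 0 to 1 higher in mitochondrial translation and 0 to 1 higher in processing and export. The ratio differed for 11 to 12 amino acids. The median of the neighbours of Kars was 0.52 in a 5 Mb window. The cause of these shifts was not tested. Replicate numbers did not pair the libraries: same-numbered libraries deviated with correlations from -0.18 to 0.36, and 1 of 5 matched its own number best. With the replicate block 26 members fell and 3 rose, the cytosolic elongation count was 2 lower, that of amidation and editing 0 lower and that of processing and export 0 higher; Ears2 and Sars2 lost their calls (adjusted p = 0.090 and 0.13, edgeR). Counts of 15 to 44 limit Nars2 in Drp1 libraries.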
